A study of Mus musculus with 24 samples.

Results

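The genes that carry propionyl-CoA to succinyl-CoA were examined in brown adipose tissue of C57BL/6J mice: Pcca, Pccb, Mcee, Mut (the current symbol is Mmut), Mmaa, Mmab and Mmadhc. The members were chosen by pathway membership, and the pathway was selected on the values of Mcee in the comparisons of both treatments with vehicle. They are 7 of the 23017 genes in the deposited table. All 7 had a row, and all 7 were among the 17263 genes tested after the lowest-expressed genes were left out. The comparisons that drew attention to Mcee therefore describe this gene and support nothing.

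The study comprised 24 libraries of polyA RNA, 6 in each of 4 groups, all from brown adipose tissue of the same strain. The reference group was labelled Vehicle. A group labelled LAGIPRA received a long-acting agonist of GIPR, the receptor of the incretin hormone GIP, and a group labelled TZP received tirzepatide, an agonist of both GIPR and the GLP-1 receptor. The fourth, PairFedVehicle, received vehicle with food intake matched to another group, as a control for eating less. The series title places the work in obese, insulin-resistant mice under chronic dosing; dose, duration, age, diet and the group that set the pair-fed intake are not given. Nothing in the labels says that the libraries of a group came from separate animals, so p-values measure the spread between these libraries, which may in part be technical.

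Propionyl-CoA is the 3-carbon end product of valine and isoleucine breakdown, of methionine and threonine breakdown, and of the oxidation of odd-chain and branched fatty acids. Propionyl-CoA carboxylase, a biotin enzyme built of Pcca and Pccb subunits, makes the D form of methylmalonyl-CoA, the epimerase Mcee turns it into the L form, and the mutase Mut rearranges that into succinyl-CoA, which enters the citric acid cycle. Mut needs adenosylcobalamin, a form of vitamin B12: Mmadhc directs cobalamin to the mitochondrion, Mmab attaches the adenosyl group, and Mmaa guards the loading of the cofactor onto Mut. Brown adipocytes take up and burn branched-chain amino acids when active, and so produce propionyl-CoA in their mitochondria.

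Promoter sequences are shown for the members on which the results turn: Mcee, Mmab, which starts beside a cholesterol synthesis gene, and the pair Pcca and Pccb, whose levels parted in the pair-fed group. RefSeq promoters (250 bases before to 50 after the start, GRCm38.p6) matched 5 of the 7 members, with 7 promoters in all; Mut and Mmadhc had no entry. Each is written 5′ to 3′ along the gene, and capitals mark CCAAT, the SP1 letters GGGCGG or the NRF1 letters GCGCATGCG on either strand. The promoters lie at chr7:64392372-64392671 (+) for Mcee, chr5:114443978-114444277 (-) for Mmab, chr14:122534078-122534377 (+) for the downstream of 2 Pcca starts, and chr9:101034835-101035134 (-) for Pccb.
Mcee: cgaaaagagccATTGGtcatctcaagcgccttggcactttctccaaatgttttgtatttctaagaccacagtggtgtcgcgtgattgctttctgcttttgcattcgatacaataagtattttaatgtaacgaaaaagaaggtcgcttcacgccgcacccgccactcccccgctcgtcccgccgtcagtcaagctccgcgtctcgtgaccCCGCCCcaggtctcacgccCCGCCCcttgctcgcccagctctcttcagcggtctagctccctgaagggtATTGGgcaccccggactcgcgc
Mmab: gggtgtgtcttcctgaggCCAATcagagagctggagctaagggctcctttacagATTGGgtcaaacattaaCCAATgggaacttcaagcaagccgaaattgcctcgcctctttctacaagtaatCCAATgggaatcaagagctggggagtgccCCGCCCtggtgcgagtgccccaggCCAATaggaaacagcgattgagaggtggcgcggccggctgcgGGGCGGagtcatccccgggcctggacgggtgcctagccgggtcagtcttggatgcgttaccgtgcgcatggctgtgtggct
Pcca: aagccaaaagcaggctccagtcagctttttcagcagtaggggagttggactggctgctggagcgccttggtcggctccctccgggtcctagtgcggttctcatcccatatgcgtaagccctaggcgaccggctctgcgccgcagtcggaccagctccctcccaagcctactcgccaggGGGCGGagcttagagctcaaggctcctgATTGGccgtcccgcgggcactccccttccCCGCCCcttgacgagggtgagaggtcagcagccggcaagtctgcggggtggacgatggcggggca
Pccb: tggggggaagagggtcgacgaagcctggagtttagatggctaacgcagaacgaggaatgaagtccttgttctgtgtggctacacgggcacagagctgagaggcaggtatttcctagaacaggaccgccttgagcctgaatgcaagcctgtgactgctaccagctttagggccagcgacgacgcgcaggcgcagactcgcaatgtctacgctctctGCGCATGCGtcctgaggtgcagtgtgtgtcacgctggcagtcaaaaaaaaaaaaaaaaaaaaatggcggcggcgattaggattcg
CCAAT letters occurred 5 times in the Mmab promoter and 2 times in that of Mcee, and were in 4 of the 7 member promoters, against 37.4% of 32851 mouse promoters of the same length. GGGCGG was in 5 of the 7, against 35.7% of all. The 7 include 2 overlapping windows of Mmaa, which share GGGCGG stretches, and 2 windows of Pcca, so they are not separate genes. By gene, CCAAT letters were found for Mcee, Mmab and Pcca, and GGGCGG for Mcee, Mmaa, Mmab and Pcca. The NRF1 letters were in 1, that of Pccb, against 1.75% of all. No member promoter held the ERR letters TCAAGGTCA (0.423% of all), the CRE TGACGTCA (1.79%), the ETS letters CCGGAAGT (3.89%), the E-box CACGTG (7.15%) or the sterol element letters TCACCCCAC (0.551%), with both strands searched for each. In the promoters shown, no marked stretch overlaps another. These matches describe the windows and do not show that a factor binds there.

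Levels are given as deposited, on a scale taken to be log2, so a difference of 1 is a change of 2-fold; read depth is unknown, and levels of different genes are not compared because no length scale was applied. Differences are from limma fitted to all 24 libraries, and a gene is called higher or lower where its Benjamini-Hochberg adjusted p over the 17263 tested genes is under 0.05. The tissue label was checked against its defining markers: the summed level of 10 brown adipocyte markers ran from 90.7 to 102 in all libraries. Of 6 white adipocyte markers, 4 (Hoxc9, Hoxc10, Wt1 and Tcf21) had medians under 1 in every group. The other 2 had a median under 1 in no group, and only these 2 were tested. Of them, 1 was called lower than in Vehicle in TZP, and 1 in PairFedVehicle. Against PairFedVehicle, 1 was called higher and 1 lower in TZP, and 1 higher and 0 lower in LAGIPRA. The mean of 16 skeletal muscle markers was between 1.11 and 1.40 in 3 libraries (PairFedVehicle 5, Vehicle 1 and TZP 3) and between 4.28 and 10.1 in the other 21. A proxy of depth also differed: the log2 value taken to be that of 1 read, which is higher where fewer reads were made, averaged 1.04 in Vehicle, 1.15 in PairFedVehicle, 1.32 in TZP and 1.35 in LAGIPRA. In bulk tissue, fewer cells of a type and less RNA per cell cannot be told apart.

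Mcee, the epimerase, was lowest in Vehicle, with a lowest, median and highest level of 8.60, 8.77 and 8.98. In PairFedVehicle the values were 8.72, 8.94 and 9.24, in LAGIPRA 9.16, 9.30 and 9.51, and in TZP 9.22, 9.45 and 9.59. All LAGIPRA and all TZP libraries lay above all Vehicle libraries, while Vehicle and PairFedVehicle overlapped, as did TZP and LAGIPRA. Mcee was higher than in Vehicle by 0.62 (SE 0.09), or 1.54-fold, in TZP and by 0.51 (SE 0.09), or 1.42-fold, in LAGIPRA. Against PairFedVehicle it was higher by 0.44 (SE 0.09) in TZP and 0.33 (SE 0.09) in LAGIPRA, with 5 and 4 of 6 libraries above every pair-fed library. These comparisons share libraries with those that chose the gene, so no p is given. The difference of TZP over LAGIPRA was 0.11 (95% interval from -0.07 to 0.30; adjusted p = 0.554, limma).

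**Figure D1:**
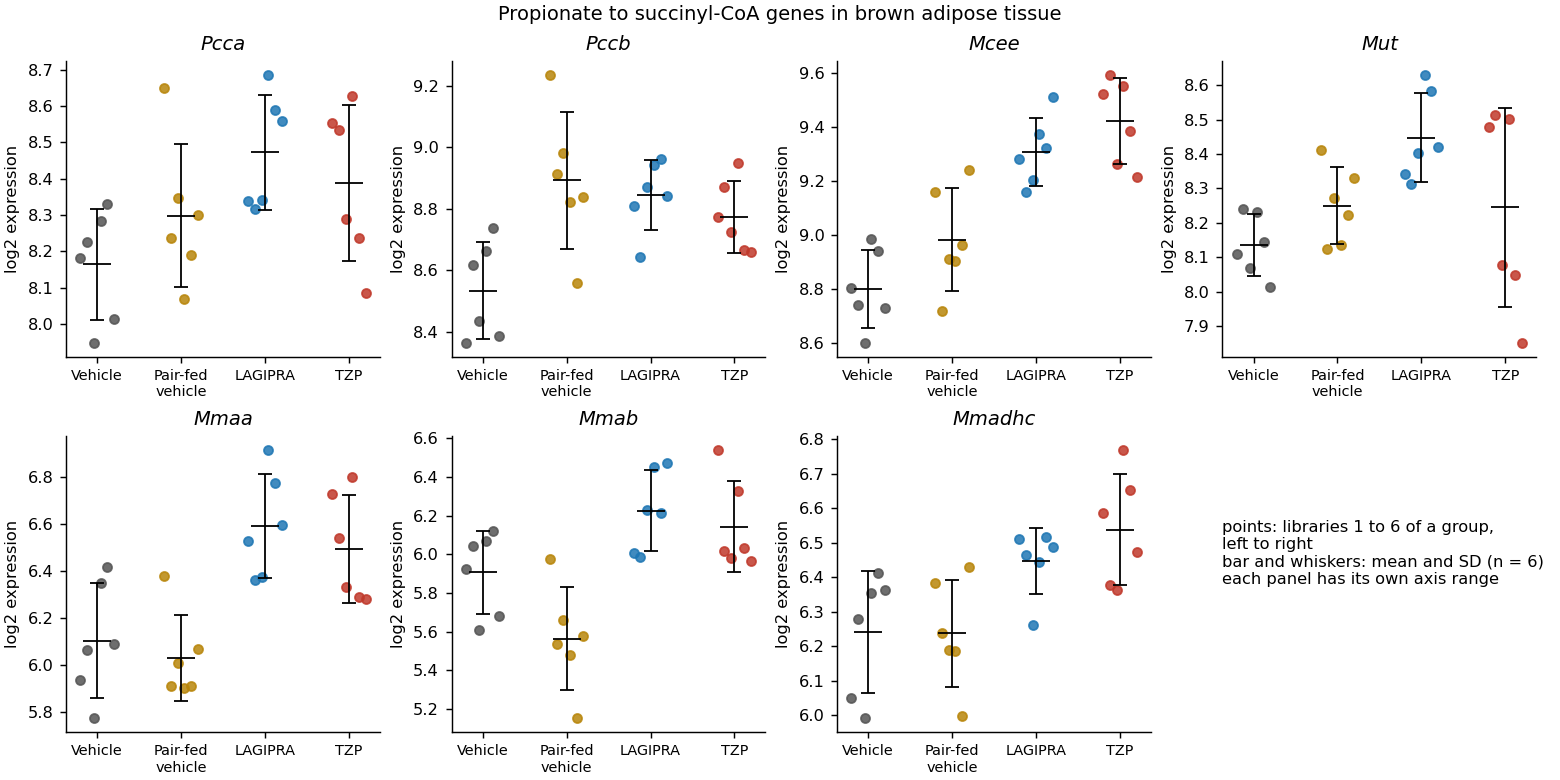
Log2 expression of the 7 propionate to succinyl-CoA genes in every library (points, libraries 1 to 6 of a group from left to right), with the mean and SD of each group (n = 6) and an axis range of its own for each gene. The LAGIPRA and TZP points of Mcee lie above all Vehicle points, the Pccb points of PairFedVehicle lie mostly above those of Vehicle, and those of Mmab in PairFedVehicle lie mostly below.

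With Vehicle as reference, the description for the whole pathway is of small increases. In TZP, 3 of the 7 genes were called higher (Mcee, Mmaa and Mmadhc) and 0 lower, where 11.7% of all tested genes were called higher and 10.3% lower. In LAGIPRA, 5 of 7 were called higher (Mcee, Mmaa, Pcca, Pccb and Mut) and 0 lower, where 8.70% of all were called higher and 5.03% lower. The median difference of the members was 0.24 in TZP and 0.31 in LAGIPRA, beside 0.04 and 0.03 over all tested genes. No overlap between the 6 and 6 libraries was seen for 1 member in TZP (Mcee; 5.45% of all genes) and for 2 in LAGIPRA (Mcee and Mut; 4.65%). Nothing is read from these counts, since these 2 comparisons chose the pathway. Both also moved with the depth proxy: with it as a covariate, 1 member was called in TZP and 0 in LAGIPRA. The share of all tested genes called under this covariate is not given here. Every gene named below that was called in LAGIPRA against Vehicle also lost its call under it. These genes were picked for likeness to Mcee, small p or a start beside a member. They are no neutral background, so whether the loss was particular to the members cannot be read from them. In TZP some of them, Ppif and Amacr among them, kept their calls. The LAGIPRA count was 1 without LAGIPRA 4 and 2 without Vehicle 1, 3 or 6 or LAGIPRA 5 or 6, and the TZP count was 1 without Vehicle 1, Vehicle 3 or TZP 4. Cell type markers also moved against Vehicle. Of 10 brown adipocyte markers, 2 were called higher and 2 lower in TZP (median 0.36), and 4 higher and 0 lower in LAGIPRA (median 0.35). Of 11 macrophage markers, 1 was called lower in TZP (median -0.51) and 6 in LAGIPRA (median -0.82), with 0 higher in either. Of 10 endothelial markers, 0 were called higher and 6 lower in TZP (median -0.31), and 1 higher and 1 lower in LAGIPRA (median 0.0015). Their part in the members' differences was not tested.

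The carboxylase subunits parted in the pair-fed mice. Pccb, the beta subunit, had a lowest, median and highest level of 8.36, 8.53 and 8.74 in Vehicle and of 8.56, 8.88 and 9.24 in PairFedVehicle, and 5 of 6 pair-fed libraries lay above every Vehicle library. It rose with pair feeding by 0.36 (SE 0.09; adjusted p = 0.0148, limma), or 1.28-fold. It was the 1 member of 7 called in this comparison, beside 4.96% of all tested genes called higher and 3.66% lower, and 0 members were free of overlap, beside 4.76%. The call was lost when only these 2 groups were fitted (adjusted p = 0.0583). Pcca, the alpha subunit, which carries the biotin, had 7.95, 8.20 and 8.33 in Vehicle and 8.07, 8.27 and 8.65 in PairFedVehicle, and its difference of 0.13 (SE 0.10) did not pass (adjusted p = 0.474, limma). The groups overlapped for Pcca except for 2 pair-fed libraries above all of Vehicle. In the same comparison, 4 of 10 brown adipocyte markers were called higher and 0 lower (median 0.15). Of 7 general adipocyte markers, 2 were called higher and 0 lower (median 0.20). Their part in the rise of Pccb was not tested.

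The difference between the subunits was tested within libraries. Pcca minus Pccb was -0.37 ± 0.10 (SD, n = 6) in Vehicle, -0.37 ± 0.11 in LAGIPRA, -0.39 ± 0.12 in TZP and -0.59 ± 0.13 in PairFedVehicle. In 5 pair-fed libraries it ran from -0.75 to -0.54, and in PairFedVehicle 5, which also had the lowest muscle markers, it was -0.37. In Vehicle 1, also low in muscle markers, it was -0.18, and in the other Vehicle libraries it ran from -0.49 to -0.37. In TZP 3, the third library low in them, it was -0.44, within the TZP range of -0.57 to -0.22. Whether Pcca minus Pccb is linked to the muscle markers was not tested. It was lower in PairFedVehicle than in Vehicle by 0.22 on the log2 scale (a difference of -0.22; exact permutation p = 0.0130, two-sided, adjusted over 4 comparisons 0.0260). It was higher than in PairFedVehicle by 0.22 in LAGIPRA (exact permutation p = 0.0130, adjusted 0.0260) and by 0.21 in TZP (exact p = 0.0238, adjusted 0.0317), both resting on the same pair-fed libraries. TZP and LAGIPRA differed by -0.01 (exact p = 0.835). Without PairFedVehicle 1, 2, 3 or 4 each of the first 3 adjusted values was between 0.0519 and 0.0635, as was that for TZP without TZP 1, 2 or 4.

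**Figure D2:**
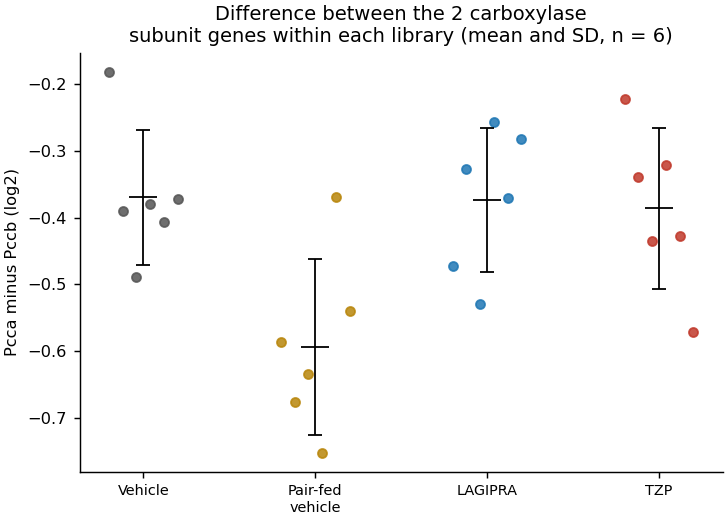
Pcca minus Pccb in log2 units in each library (points), by group, with the mean and SD (n = 6). The pair-fed points lie between -0.75 and -0.37 around a mean of -0.59, below the means of -0.37, -0.37 and -0.39 in Vehicle, LAGIPRA and TZP.

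Neither treatment group differed detectably from PairFedVehicle in the carboxylase subunits taken singly. Pccb stood at 8.64, 8.86 and 8.96 (lowest, median and highest) in LAGIPRA and at 8.66, 8.75 and 8.95 in TZP, within the pair-fed range. Its difference from PairFedVehicle was -0.05 in LAGIPRA (95% interval from -0.23 to 0.14; adjusted p = 0.792, limma) and -0.12 in TZP (from -0.31 to 0.07; adjusted p = 0.419). Pcca, at 8.32, 8.45 and 8.69 in LAGIPRA and 8.09, 8.41 and 8.63 in TZP, differed from PairFedVehicle by 0.17 (adjusted p = 0.300, limma) and 0.09 (adjusted p = 0.621). The intervals allow differences of up to 0.39 and 0.30 in Pcca.

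Mut, the mutase itself, showed a spread in TZP that the other groups did not have. Its lowest, median and highest levels were 8.01, 8.13 and 8.24 in Vehicle, 8.12, 8.25 and 8.41 in PairFedVehicle, 8.31, 8.41 and 8.63 in LAGIPRA, and 7.85, 8.28 and 8.51 in TZP. The SD was 0.29 in TZP and between 0.09 and 0.13 elsewhere; the difference in spread was not tested. TZP 1, 2 and 4 lay above all pair-fed libraries and TZP 3, 5 and 6 below all of them, so the mean difference was -0.0049 (95% interval from -0.21 to 0.20; adjusted p = 0.982, limma). The difference of LAGIPRA from PairFedVehicle was 0.20 (SE 0.10; adjusted p = 0.206, limma) and that of TZP from LAGIPRA -0.20 (SE 0.10; adjusted p = 0.307), and neither passed. The slope of log2 expression on transcript length was between -0.165 and -0.0643 in TZP 3 to 6, 0.0179 and 0.0199 in TZP 1 and 2, and between -0.00553 and 0.0582 in the other groups. Over 24 deviations from group means, Mut and this slope had r = 0.58 (rho = 0.23; permutation p = 0.114 and 0.405; adjusted 0.301 and 0.773; r = 0.25 without the 2 farthest libraries), which did not pass. With TZP 1 and 2 alone in the TZP group, Mut was 0.25 above PairFedVehicle, with an adjusted p of 0.126 (limma). The depth proxy was 1.454, 1.526 and 1.505 in TZP 1, 2 and 4, and 1.289, 1.158 and 0.962 in TZP 3, 5 and 6. Over the same deviations Mut and the proxy had r = 0.69 (rho = 0.65; permutation p adjusted 0.00530 and 0.0196; r = 0.58 without the 2 farthest libraries). The part of depth in the spread of Mut was not tested.

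Beside Mcee, the members called above the pair-fed level were those of cobalamin handling. In TZP against PairFedVehicle, 4 of the 7 members were called higher and 0 lower (Mcee, Mmaa, Mmab and Mmadhc), beside 8.39% of all tested genes called higher and 8.02% lower. In LAGIPRA against PairFedVehicle, 3 of 7 were called higher and 0 lower (Mcee, Mmaa and Mmab), beside 7.30% higher and 4.55% lower. The members' medians were 0.30 and 0.21, against -0.0024 and -0.012 over all tested genes. Both counts and both medians include Mcee, whose values in the same treated libraries chose the pathway, so its calls here support nothing. The 2 comparisons share the 6 pair-fed libraries. Beside these, 0 of 10 brown adipocyte markers were called higher and 1 lower in each of the 2 comparisons, 0 of 7 general adipocyte markers and 0 of 16 muscle markers were called in either, and 7 of 10 endothelial markers were called lower in TZP (median -0.33) and 0 in LAGIPRA. The summed level of the 10 endothelial markers ran from 70.6 to 76.3 in TZP and from 77.4 to 79.0 in PairFedVehicle, and its part in the members' differences was not tested. Of 5 erythroid markers, 5 were called lower in TZP than in Vehicle (median -1.08), 3 lower than in LAGIPRA (median -1.56) and 0 against PairFedVehicle (median -0.82). Their summed level ran from 51.6 to 59.5 in TZP, from 54.6 to 67.5 in PairFedVehicle, from 58.1 to 65.1 in Vehicle and from 61.4 to 65.7 in LAGIPRA, and its part was not tested either. No overlap was seen for 0 members in the first, beside 4.92% of all genes, and for 1 in the second (Mmab), beside 5.86%.

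Mmab, the adenosyltransferase, had its lowest levels in the pair-fed group. Its lowest, median and highest levels were 5.61, 5.98 and 6.12 in Vehicle, 5.15, 5.56 and 5.98 in PairFedVehicle, 5.99, 6.22 and 6.47 in LAGIPRA and 5.96, 6.03 and 6.54 in TZP. All LAGIPRA libraries and 5 of 6 TZP libraries lay above every pair-fed library. Mmab was higher than in PairFedVehicle by 0.66 (SE 0.13), or 1.58-fold, in LAGIPRA (adjusted p = 0.00176, limma) and by 0.58 (SE 0.13), or 1.50-fold, in TZP (adjusted p = 0.00459). Both calls were kept under every alternative run, with adjusted p of at most 0.00850 and 0.0327. The pair-fed level was 0.34 below Vehicle (a difference of -0.34, SE 0.13), with 4 of 6 pair-fed libraries below every Vehicle library, but this did not pass (adjusted p = 0.109, limma). It passed without PairFedVehicle 1 (adjusted p = 0.0497) and with the depth proxy as a covariate (adjusted p = 0.0326). Against Vehicle, Mmab was called in neither treatment in the main fit, with differences of 0.24 (SE 0.13) in TZP and 0.32 (SE 0.13) in LAGIPRA.

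Mmaa, the chaperone of cofactor loading, had 5.77, 6.08 and 6.42 in Vehicle, 5.90, 5.96 and 6.38 in PairFedVehicle, 6.36, 6.56 and 6.92 in LAGIPRA and 6.28, 6.43 and 6.80 in TZP. In PairFedVehicle, 5 libraries lay at or below 6.07 and PairFedVehicle 1, at 6.38, overlapped both treated groups. Mmaa was higher than in PairFedVehicle by 0.56 (SE 0.12) in LAGIPRA (adjusted p = 0.00448, limma) and by 0.46 (SE 0.12) in TZP (adjusted p = 0.0134). Its difference of PairFedVehicle from Vehicle was -0.07 (95% interval from -0.33 to 0.18; adjusted p = 0.780). The TZP call was lost with the length slope as a covariate (adjusted p = 0.0611), the LAGIPRA call under none of the alternatives.

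Mmadhc, which directs cobalamin toward the mitochondrion, stood at 5.99, 6.32 and 6.41 in Vehicle, 6.00, 6.21 and 6.43 in PairFedVehicle, 6.26, 6.48 and 6.52 in LAGIPRA and 6.36, 6.53 and 6.77 in TZP. TZP exceeded PairFedVehicle by 0.30 (SE 0.09; adjusted p = 0.0234, limma), with 4 of 6 libraries above all pair-fed ones, and LAGIPRA exceeded it by 0.21 (SE 0.09; adjusted p = 0.133), which did not pass. Vehicle and PairFedVehicle differed by -0.0039 (95% interval from -0.19 to 0.18). The TZP call held in 18 of 27 alternatives and was lost, for example, without TZP 4, TZP 5 or PairFedVehicle 5, with adjusted p between 0.0576 and 0.0692.

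**Figure D3:**
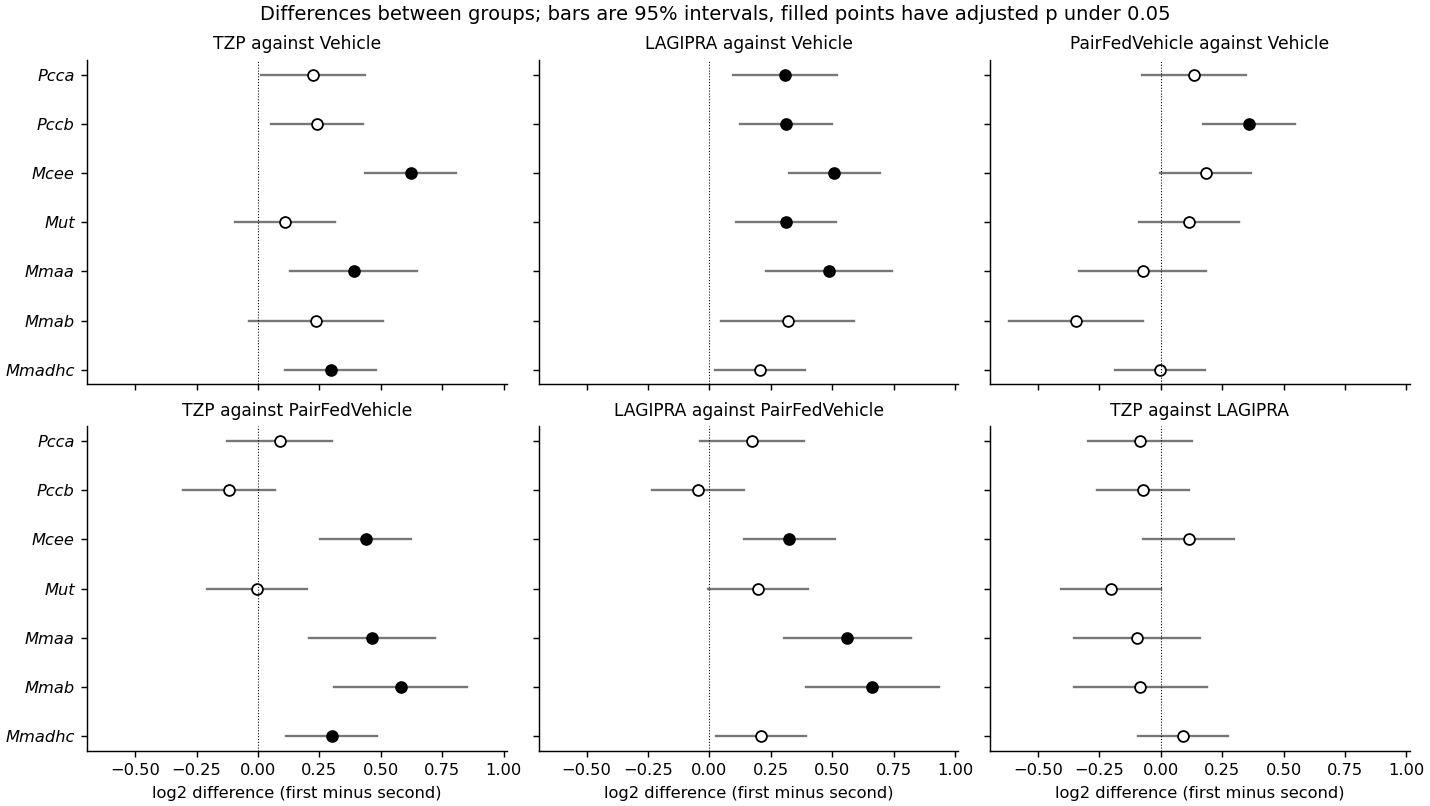
Log2 difference of each of the 7 genes in the 6 comparisons (first group minus second), with 95% intervals; filled points have an adjusted p under 0.05 (limma). Filled points to the right of 0 number 3, 5, 1, 4, 3 and 0 from the first to the last comparison, and no filled point lies to the left of 0. The filled points of Mcee, against Vehicle and against PairFedVehicle, are description only, since its values in the treated libraries chose the pathway.

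TZP and LAGIPRA did not differ detectably in any member. By limma 0 of 7 were called and 0 were free of overlap, beside 0.400% of all tested genes called and 0.811% without overlap. At an unadjusted p under 0.05 the count was also 0. The differences of TZP from LAGIPRA ran from -0.20 for Mut to 0.11 for Mcee, with a median of -0.08 beside 0.01 over all tested genes. The interval of Mut, from -0.41 to 0.00, and that of Mmab, from -0.35 to 0.19, show the size of difference that these libraries leave possible.

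The start of Mmab lies 242 bases from that of Mvk on the opposite strand, in the RefSeq promoter table. Mvk codes for mevalonate kinase, an enzyme of cholesterol synthesis. Its lowest, median and highest levels were 5.11, 5.26 and 5.59 in Vehicle, 4.50, 4.86 and 5.21 in PairFedVehicle, 5.32, 5.49 and 5.68 in LAGIPRA and 5.30, 5.46 and 5.72 in TZP. Mvk fell with pair feeding by 0.44 (SE 0.11; adjusted p = 0.0117, limma) and was higher than in PairFedVehicle by 0.64 in TZP (adjusted p = 0.000467) and 0.63 in LAGIPRA (adjusted p = 0.000446), with no overlap in either. Both Mmab and Mvk had their lowest mean in PairFedVehicle, and their differences from it were of similar size; whether those differ was not tested. Within groups the pair had r = 0.51 over 24 deviations from group means (rho = 0.46; permutation p = 0.0238 and 0.0361; adjusted over 3 such pairs 0.0358 and 0.0541; r = 0.40 without the 2 farthest libraries).

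Cholesterol synthesis genes as a list fell with pair feeding. Of 21, 15 were called lower and 0 higher in PairFedVehicle against Vehicle, with a median difference of -0.67. Against PairFedVehicle, 14 were called higher and 0 lower in TZP and likewise in LAGIPRA, each with a median of 0.64; over the alternatives the 3 counts ran from 12 to 15, 11 to 16 and 13 to 14. Fdps, farnesyl diphosphate synthase, fell by 1.09 (SE 0.09; adjusted p = 1.44e-07, limma), Nsdhl by 0.95 and Idi1 by 0.87 with pair feeding. Within groups, the correlation of Mmab with the mean of the 21 genes, which include Mvk, did not pass (r = 0.41, rho = 0.34, permutation p = 0.0831 and 0.132, adjusted 0.145 and 0.230; r = 0.09 without the 2 farthest libraries).

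**Figure D4:**
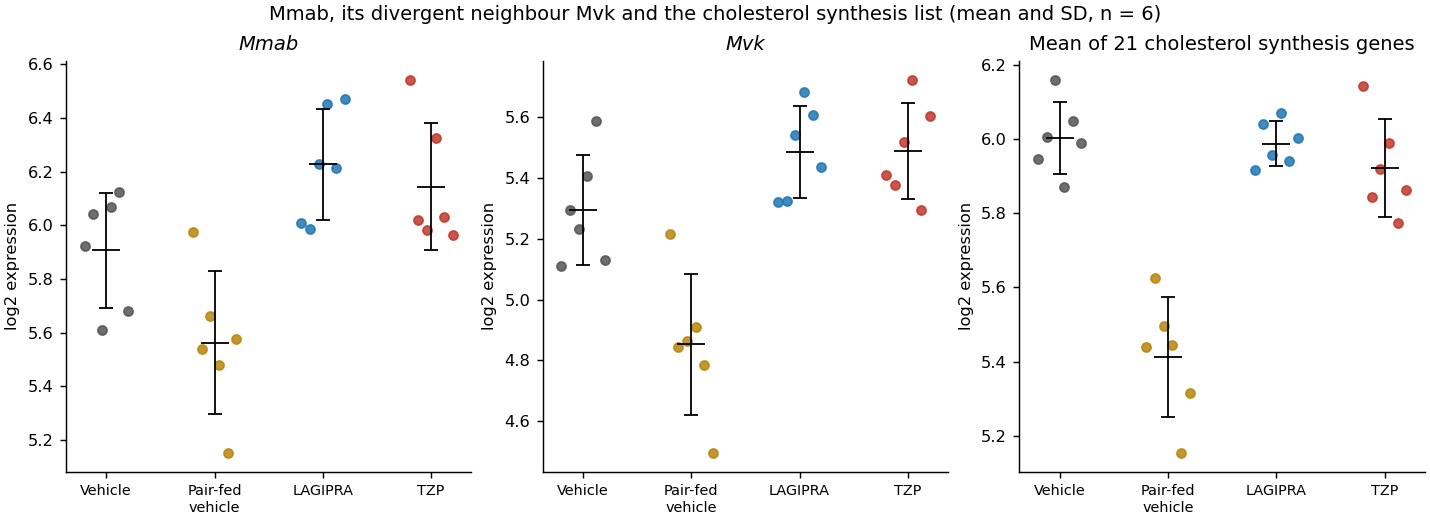
Log2 expression of Mmab, of Mvk, which starts beside it on the other strand, and the mean of 21 cholesterol synthesis genes (Mvk included) in each library, with the mean and SD of each group (n = 6). PairFedVehicle is the lowest group in all 3 panels.

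The other neighbours were called in fewer comparisons. Mphosph10, a ribosome biogenesis gene whose start lies 386 bases from that of Mcee on the other strand, was called in none of the 6 comparisons, with differences from 0.03 to 0.16. Its medians were 5.82 in Vehicle, 5.78 in PairFedVehicle, 5.86 in LAGIPRA and 5.95 in TZP. Within groups, Mcee and Mphosph10 had r = 0.50 (rho = 0.51; permutation p = 0.0239 and 0.0175; adjusted 0.0358 and 0.0526; r = 0.38 without the 2 farthest). Gm4890, a predicted gene beside Mmaa, was called higher than in Vehicle in TZP (0.77, adjusted p = 0.00986, limma) and LAGIPRA (0.63, adjusted p = 0.0417). It was not called against PairFedVehicle in TZP (0.52, adjusted p = 0.0830, limma) or LAGIPRA (0.38, adjusted p = 0.244). Its within-group r with Mmaa was 0.25 (rho = 0.24; permutation p = 0.286 and 0.305, which adjust to the same values).

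The members varied together from library to library within groups. Over 24 deviations from group means, 20 of 21 pairs of members by Pearson's r, and 18 by Spearman's rho, had a permutation p that stayed under 0.05 after adjustment. The share of passing pairs among all tested genes is not given here, so the count is not read as particular to the pathway. Ranks were taken for Mcee alone: among all tested genes, Pcca ranked 241 in r with Mcee (0.74) and Pccb 2279 (0.47). The closest pairs were Pcca with Mmaa (r = 0.89, rho = 0.89), Pcca with Mut (r = 0.86, rho = 0.86) and Pcca with Mmab (r = 0.81, rho = 0.81), each with a permutation p of 1e-05 for r and for rho, the smallest that 100000 resamples can give, and adjusted 7.00e-05 and 5.25e-05; r was 0.88, 0.85 and 0.78 without the 2 farthest libraries. The subunits Pcca and Pccb had r = 0.78 (rho = 0.81; permutation p adjusted 0.000210 and 5.25e-05; 0.72 without the 2 farthest). Mut with Mmadhc passed by neither (r = 0.26, rho = 0.27; permutation p = 0.263 and 0.227, which adjust to the same values). Pcca with Mmadhc (r = 0.45, rho = 0.43) and Pccb with Mmadhc (r = 0.49, rho = 0.44) passed by r and not by rho (permutation p adjusted 0.0460 and 0.0333 for r, 0.0560 for both rho). PairFedVehicle 1 and Vehicle 5 were each the highest library of their group for 5 members, and LAGIPRA 2 and TZP 6 the lowest of theirs for 6.

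Part of the shared variation moved with the depth proxy. Its r with Pcca was 0.70, with Mmaa 0.70, with Mut 0.69, with Mcee 0.63, with Mmab 0.51 and with Pccb 0.45, and with Mmadhc 0.29 (rho 0.73, 0.77, 0.65, 0.65, 0.53, 0.53 and 0.32; 21 relations tested). The permutation p adjusted for the first 4 was 0.00530, for Mmab and Pccb 0.050, and for Mmadhc 0.413; without the 2 farthest libraries r ran from 0.30 to 0.63. With the proxy as a covariate 12 of the 21 pairs passed by r, and r of Pcca with Mmaa was 0.78. None of the members passed with the length slope or with the muscle markers. 

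**Figure D5:**
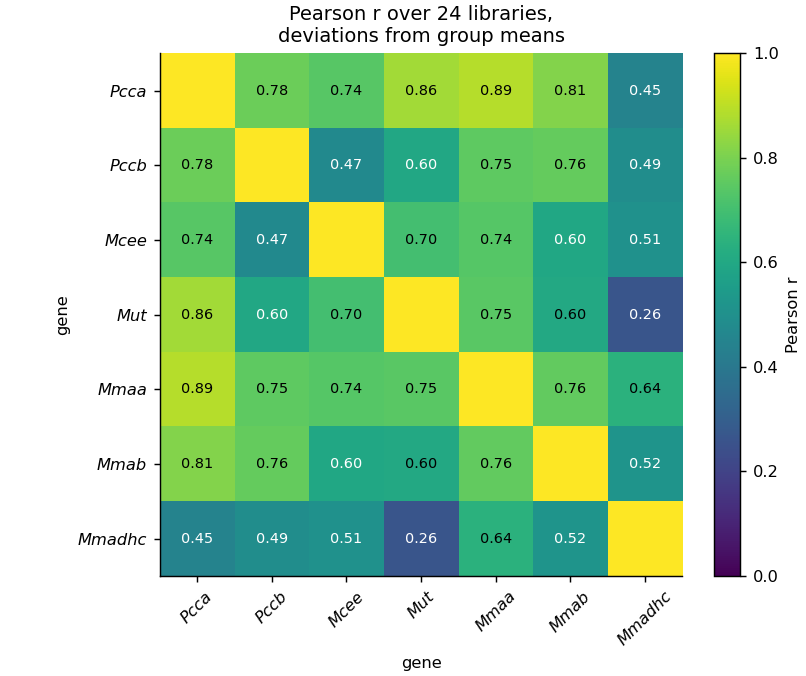
Pearson r between the 7 genes over 24 libraries, after the mean of each group was subtracted; colour and printed value give r. The highest value is 0.89 (Pcca with Mmaa) and the lowest 0.26 (Mut with Mmadhc).

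Upstream, the genes of valine and isoleucine breakdown varied with the members. The mean of 13 such genes had r = 0.95 with Pcca (rho = 0.92; permutation p = 1e-05, the smallest possible; adjusted 3.50e-05; 0.93 without the 2 farthest), 0.90 with Mut (rho = 0.89), 0.88 with Mmaa (rho = 0.86), 0.80 with Pccb (rho = 0.83), 0.80 with Mmab (rho = 0.82) and 0.78 with Mcee (rho = 0.76), all at adjusted permutation p of at most 9.33e-05 for r. Mmadhc had r = 0.49 (rho = 0.51; permutation p = 0.0267 and 0.0217; adjusted 0.0533 and 0.0434). With the depth proxy as a covariate, r with Pcca was 0.90 and with Mcee 0.61. This list and the cholesterol synthesis list were chosen for such correlations after the list counts were seen. The mean of no other list was correlated with the members, so these values do not show that the relation is particular to this route. In group comparisons the 13 genes moved less uniformly: 3 were called higher and 0 lower in PairFedVehicle against Vehicle, 2 higher and 1 lower in TZP against PairFedVehicle, and 3 higher and 1 lower in LAGIPRA against PairFedVehicle. The medians were 0.17, 0.09 and 0.24. The pair-feeding count was 1 without Vehicle 1, 3 or 6 or PairFedVehicle 1, 2, 3 or 6. The TZP count of 3 was 5 when the depth proxy was a covariate and 1 when the length slope was, and the LAGIPRA count of 4 was 2 without PairFedVehicle 2 and 7 with limma's sample weights.

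The member of this list called lower in both treatments than in PairFedVehicle was Hsd17b10, a mitochondrial dehydrogenase of the isoleucine route. It rose with pair feeding by 0.71 (SE 0.10; adjusted p = 0.000125, limma) with no overlap, and was below PairFedVehicle by 0.40 in TZP and 0.44 in LAGIPRA (differences of -0.40 and -0.44; adjusted p = 0.0115 and 0.00806). Acad8, the isobutyryl-CoA dehydrogenase of the valine route, was above PairFedVehicle by 0.34 in TZP and 0.44 in LAGIPRA (adjusted p = 0.0176 and 0.00399, limma). Bcat2, the mitochondrial transaminase that opens the pathway, rose with pair feeding by 0.24 (SE 0.07; adjusted p = 0.0395, limma), a call that held in 14 of 26 alternatives. Counts of the list against Vehicle were 4 higher in TZP and 8 higher in LAGIPRA, 0 lower in both, and 0 in both with the depth proxy as a covariate.

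Other sources of propionyl-CoA gave mixed counts over 9 tested genes. In PairFedVehicle against Vehicle 0 were called higher and 1 lower, in TZP against PairFedVehicle 3 higher and 1 lower, and in LAGIPRA against PairFedVehicle 2 higher and 0 lower. The TZP count of 4 was 2 without TZP 3, 4, 5 or 6 or PairFedVehicle 2, 3, 4 or 6, and the pair-feeding count was 2 without Vehicle 5 or PairFedVehicle 4 and 4 without PairFedVehicle 5. Acss2, which activates acetate and to a lesser degree propionate, fell with pair feeding by 1.26 (SE 0.15; adjusted p = 1.08e-05, limma). Amacr, the racemase that readies branched fatty acids for oxidation, was higher than in PairFedVehicle by 0.39 in TZP and 0.38 in LAGIPRA (adjusted p = 0.00260 and 0.00362). Phyh, which starts phytanic acid breakdown, differed from PairFedVehicle by 0.15 in LAGIPRA and -0.01 in TZP and was not called in either.

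Counts for the supply of the 2 vitamins were small and mixed. Of 11 genes of cobalamin uptake and handling, 1 was called higher in PairFedVehicle than in Vehicle, 2 higher and 2 lower in TZP than in PairFedVehicle, and 1 and 1 in LAGIPRA. The LAGIPRA count of 2 was 4 without PairFedVehicle 1 or when the length slope was a covariate, and the TZP count of 4 was 2 with TZP 1 and 2 alone. Tcn2, transcobalamin, the plasma carrier that delivers cobalamin to cells, had medians of 7.39 in Vehicle, 7.86 in PairFedVehicle, 7.34 in LAGIPRA and 7.44 in TZP. It rose with pair feeding by 0.45 (SE 0.07; adjusted p = 0.000126, limma) and was below the pair-fed level by 0.41 in TZP and 0.50 in LAGIPRA (differences of -0.41 and -0.50; adjusted p = 0.000328 and 2.79e-05), with no overlap in any of the 3. Hcfc1, a transcriptional coregulator required for cobalamin metabolism, was 1.51 lower in TZP than in PairFedVehicle (a difference of -1.51; adjusted p = 0.00303, limma); its TZP levels ran from 3.80 to 6.35, and with TZP 1 and 2 alone or the length slope as a covariate the call was lost. Mtr, the cytosolic cobalamin enzyme methionine synthase, was not called against PairFedVehicle (differences of -0.32 and -0.46, with adjusted p of 0.163 and 0.0541, limma). Against Vehicle, Mtr was called lower in TZP and LAGIPRA (differences of -0.55 and -0.69). The TZP call was lost with the length slope as a covariate, the LAGIPRA call with the depth proxy as one.

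Of 7 genes of biotin supply and other biotin carboxylases, 1 was called higher and 1 lower with pair feeding. Slc5a6, the transporter of biotin and pantothenate, rose by 0.79 (SE 0.15; adjusted p = 0.00176, limma), and Acaca, acetyl-CoA carboxylase, fell by 2.35 (SE 0.30; adjusted p = 2.84e-05). Acaca was higher than in PairFedVehicle by 2.07 in TZP and 2.59 in LAGIPRA (adjusted p = 0.000117 and 7.23e-06). Mccc2, a subunit of the leucine pathway carboxylase, was 0.30 higher in LAGIPRA (adjusted p = 0.0372, limma), a call that held in 12 of 26 alternatives. Against PairFedVehicle the list's count was 1 in TZP and 2 in LAGIPRA; without PairFedVehicle 1 these were 2 and 4, and the LAGIPRA count was 1 without LAGIPRA 4, 5 or 6 or PairFedVehicle 2, 3, 4, 5 or 6.

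Around the pathway, the enzymes that repair or clear acyl-CoA side products were called higher in the treated groups in part. Of 8 genes of acyl-CoA repair and clearance, 4 were called higher and 0 lower in TZP against PairFedVehicle (median 0.29), 5 and 0 in LAGIPRA (median 0.35), and 1 and 0 in PairFedVehicle against Vehicle. With only the groups compared the TZP count was 1, with the depth proxy as a covariate the LAGIPRA count was 3, and the pair-feeding call was lost without Vehicle 1 or 2 or PairFedVehicle 3 or 6. Echdc1, which removes the side product ethylmalonyl-CoA, was above PairFedVehicle by 0.54 in LAGIPRA and 0.39 in TZP (adjusted p = 0.00139 and 0.0127, limma). Nudt19, a hydrolase of coenzyme A, was above it by 0.40 in TZP and 0.36 in LAGIPRA (adjusted p = 0.00225 and 0.00487), with no overlap in either. Sirt5, which removes succinyl and malonyl groups from proteins, was not called there (0.29 and 0.11; adjusted p = 0.111 and 0.635).

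Of 11 genes on a list of succinyl-CoA use, 3 were called higher in TZP and 5 in LAGIPRA than in PairFedVehicle, 0 lower in either, and 1 was called lower with pair feeding. That gene was Alas1, which joins succinyl-CoA with glycine in the first step of heme synthesis. It fell with pair feeding by 0.81 (SE 0.09; adjusted p = 5.65e-06, limma) and was above PairFedVehicle by 0.76 in TZP and 1.07 in LAGIPRA (adjusted p = 9.09e-06 and 1.16e-07). Sdhd, a succinate dehydrogenase subunit, was 0.31 and 0.38 above PairFedVehicle (adjusted p = 0.0189 and 0.00613), and Dlst, a subunit of the 2-oxoglutarate dehydrogenase complex that makes succinyl-CoA, 0.33 and 0.48 (adjusted p = 0.0363 and 0.00465). The Dlst call in TZP held in 15 of 27 alternatives. The TZP count was 1 without TZP 4, and the LAGIPRA count was 8 with sample weights and 3 without LAGIPRA 6 or PairFedVehicle 4 or 5.

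The genes with levels most like those of Mcee were not other members. Over the 24 libraries the highest Pearson r with Mcee belonged to Ppif (0.93), the cyclophilin of the mitochondrial permeability pore, Ldhb (0.93), a lactate dehydrogenase subunit, Cib2 (0.93), a calcium-binding protein, Gde1 (0.93), a phosphodiesterase, and Bckdhb (0.93), a subunit of the branched-chain ketoacid dehydrogenase. After group means were subtracted they were Mpc2 (0.92), a subunit of the mitochondrial pyruvate carrier, Bckdhb (0.92), Ldhb (0.91), Letm1 (0.91), an inner membrane ion exchanger, and Ndufb6 (0.91), a complex I subunit. Among the members, Mmaa came nearest over the 24 libraries (0.83, rank 271), then Mmadhc (0.76, rank 649), and Pccb was farthest (0.50, rank 2972). After group means were subtracted, Pcca came nearest (0.74, rank 241), then Mmaa (0.74, rank 251), Mmadhc had rank 1893 (0.51) and Pccb was again farthest (0.47, rank 2279). These are descriptions with no test, and the points share the depth differences given above.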

How the data were processed

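Brown adipose RNA was extracted with TRIzol and a lipid tissue kit and polyA-selected, per the labels' protocols. The submitters' processing notes name cutadapt 1.9.1 and GSNAP without their roles. The genome build, annotation, counting and strand handling: not given in the sources used here. Values deposited by the authors were taken to be log2 and quantile normalized, a scale inferred from the values. Depth is unknown, and the commonest low value, read as that of 1 read (0.89 to 1.676), served as its proxy. An offset in the log scale would understate changes of weakly expressed genes.

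The 25% of genes with the lowest mean (5754, below 2.86) were left out, leaving 17263. Differences were tested with limma (version 3.58.1, R 4.3.3), with 1 mean per group over 24 libraries, a mean-variance trend, two-sided p and Benjamini-Hochberg adjustment over all tested genes; the fit was tested on simulated data. Exact permutation tests enumerated 924 assignments, and correlations used 100000 resamples within groups (Python 3.11.15, SciPy 1.17.1, matplotlib 3.10.9). Transcript lengths were found for 89.24% of tested genes.

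Members and gene lists were chosen with earlier results of these data known. Named genes were all members, up to 3 called genes of each list with the smallest p, genes starting within 1000 bases of a member on the other strand, and the 5 genes most like Mcee by each of 2 correlations, predicted models passed over in the last. Their correlations with neighbours were added after seeing the data, and those of members with the means of 2 lists after the list counts were seen. Amn and Pc had no row and were not analysed here. Alternatives covered filter, threshold, normalization, variance model, replicate block, depth, length, muscle markers and left-out libraries.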

Additional observations from a re-analysis of the deposited data

Results flagged for a closer look

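Over 32 sets of 6 values (the 7 genes and the subunit difference in 4 groups), 2 had a sample far from the others, where chance alone gives about 1 in 20. Mmaa was 6.38 (6.377) in PairFedVehicle 1, with a gap to the next library of 0.648 of the group's range, above Dixon's critical value for 6 samples. Mmadhc was 6.26 (6.262) in LAGIPRA 3, with a gap of 0.720 of the range, also above it.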

How the results depend on the processing

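The calls of Mmab in TZP and LAGIPRA and of Mmaa in LAGIPRA, against PairFedVehicle, held in every alternative run. At a threshold of 0.01 the members called were 1, 1, 0 and 2 in TZP, LAGIPRA and PairFedVehicle against Vehicle and in TZP against PairFedVehicle. With only the groups compared they were 1 in TZP against Vehicle and 0 in PairFedVehicle against Vehicle. With the value of 1 read as covariate they were 1 in TZP, 0 in LAGIPRA and 2 in PairFedVehicle against Vehicle, and 12 pairs of members were correlated by r. With the length slope as covariate they were 1 in TZP against Vehicle and 2 in TZP against PairFedVehicle. With muscle markers as covariate, or without the 3 libraries lowest in them, LAGIPRA against Vehicle had 2. Leaving out single libraries gave 1 to 4 in TZP, 1 to 5 in LAGIPRA and 1 to 2 in PairFedVehicle against Vehicle. The same gave Pcca minus Pccb differences of -0.27 to -0.19 (PairFedVehicle against Vehicle), 0.17 to 0.25 and 0.19 to 0.26 (TZP and LAGIPRA against PairFedVehicle) and -0.046 to 0.024 (TZP against LAGIPRA). Shares of all tested genes called under these settings are not given here, so the counts cannot be set against them. The causes were not tested.

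Directions that turned belonged to differences that were not called. Mut in TZP against Vehicle was -0.063 and Pcca in TZP against PairFedVehicle -0.018 with the value of 1 read as covariate. Mmadhc in PairFedVehicle against Vehicle was 0.0053 without the 3 libraries lowest in muscle markers and -0.054 to 0.044 without single libraries. Mut in TZP against PairFedVehicle was 0.040 with the length slope removed, 0.19 with it as covariate, 0.023 without those 3 libraries, 0.25 with TZP 1 and 2 alone and -0.059 to 0.074 without single libraries. Pccb in LAGIPRA against PairFedVehicle was -0.11 to 0.022 without single libraries. In TZP against LAGIPRA, Pcca was 0.013 with the length covariate, Mcee -0.0060 with the slope removed, and with TZP 1 and 2 alone Pcca was 0.070, Mut 0.048, Mmaa 0.042 and Mmab 0.054.

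Replicate numbers did not pair the libraries: over 36 same-numbered pairs, r of deviations from group means ran from -0.60 to 0.38, 12 exceeded 0.1, and 5 of 24 libraries were closest to their own number. With the replicate block, LAGIPRA against Vehicle had 3 members called in place of 5, and the other comparisons 3, 1, 4, 3 and 0, as without it.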
